A study of Arabidopsis thaliana with 18 samples.

Results

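The 93 rows described here carry locus codes that begin with ATMG, the prefix for genes of the mitochondrial genome of Arabidopsis thaliana. They were chosen by that prefix alone, with no use of their values, from a table of 30014 rows with 1 row per locus. Total RNA was hybridised to 18 Affymetrix AGRONOMICS1 arrays, 3 for each of 6 groups. The groups were 2 genotypes at 3 stages, namely siliques (14 days after pollination), dry seeds (freshly harvested) and imbibed seeds (6 h in water). The genotypes were NIL-DOG1, which the labels give as wild type, and rdo5-1. Plants of both were grown on soil in a growth chamber under a light cycle of 16 h on and 8 h off, and no treatment was given. The labels name the replicates biological and do not say whether they came from separate plants or harvests, so p-values measure the spread between these samples. The question named by the series title is how gene expression differs between the lines. RDO5 is known as a seed dormancy gene, and DOG1 as a central one.

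Plant mitochondria keep a small genome of their own, which encodes some subunits of the respiratory chain and of ATP synthase, parts of the mitochondrial ribosome, and many open reading frames without a known role. The other subunits are encoded in the nucleus and imported, and several of the respiratory complexes are built from products of both genomes. Dry seeds hold respiratory activity at a very low level, and respiration resumes soon after water uptake. The nuclear genome of Arabidopsis carries a large copy of mitochondrial sequence on chromosome 2, whose rows in this table begin with AT2G076, AT2G077 or AT2G078. The gene table used here named none of the 93 ATMG codes, so the rows are given by code with no gene name or role.

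RNA was labelled with a kit that primes from poly(A) tails. In plant mitochondria such tails are known mainly as marks of RNA that is being degraded, so the values are of the RNA this priming reaches, which may be a small share of each transcript. In whole siliques and seeds, fewer mitochondria, fewer cells and less RNA per cell cannot be told apart.

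The values are log2 intensities after RMA, and replicate arrays correlated at 0.990 to 0.995 over all rows and at 0.960 to 0.992 over the 93 mitochondrial rows. RDO5 was lower in rdo5-1 at every stage, with log2 fold changes of -1.001 (siliques), -0.93 (dry) and -1.34 (imbibed) and an SE of 0.14, and every rdo5-1 array lay below every NIL-DOG1 array of its stage. The silique markers RBCS1A, CAB1, AGL8, SHP1, SHP2 and IND were all lower in dry seeds than in siliques in both genotypes. Of 5 seed markers, the late embryogenesis genes GEA6 and EM1 were called higher in dry seeds in both genotypes, by 8.90 and 3.64 in NIL-DOG1. The storage protein genes CRA1 and CRU3 and the oil body gene OLEO1 were already high in siliques and passed no test, with NIL-DOG1 group means of 14.42, 14.42 and 13.77 at the silique stage and 14.33, 14.31 and 13.75 in dry seeds. The germination genes GA3OX2 and EXPA2 stayed between 3.44 and 4.92 in group mean at every stage, so no defining marker of imbibition separated the imbibed seeds.

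Not every mitochondrial row was a measurement of its own. For 19 of the 93 rows (20.4%) a chromosome 2 row held the same 18 values, in 18 sets of identical rows. ATMG00170 and ATMG00620 shared all values with each other and with AT2G07722, which left 92 distinct rows. ATMG00930 shared its values with AT2G07748 and with the plastid row ATCG00610. Of all rows 139 (0.463%) had an identical row.

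The other 74 rows ranged widely in how far they resembled a chromosome 2 row. Taking for each the chromosome 2 row whose deviations from group means over the 18 arrays correlated best with its own, Pearson's r had a median of 0.82, was at least 0.9 for 21 rows and fell no lower than 0.49. The deposited values of such pairs could still correlate weakly. Their r over 18 arrays was 0.12 for ATMG01080, 0.25 for ATMG00760, 0.26 for ATMG00040, 0.27 for ATMG00850 and 0.29 for ATMG01120. These r values are a description over 18 shared arrays, and each partner was picked for being the highest of 114. The order of the codes ran in parallel in places. Of 16 rows from ATMG00480 to ATMG00620, a run chosen after the values were seen, 13 had a partner between AT2G07707 and AT2G07722, and all 13 partners stood in ascending order. Partners there were AT2G07715 for ATMG00560, AT2G07716 for ATMG00570, AT2G07717 for ATMG00580 and AT2G07719 for ATMG00610. The gene table matched all 114 chromosome 2 rows and gives 50 of them as pseudogenes or transcribed pseudogenes. How far the mitochondrial and the nuclear copy each contributed to a row was not tested, so a row stands below for the sequence, wherever in the cell it was transcribed.

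Mitochondrial rows were brighter than most of the table, and most so in dry seeds. Their median in NIL-DOG1 siliques was 5.04, 5.29 and 5.07 on the 3 arrays. It was 6.19, 5.94 and 6.29 in dry seeds and 5.53, 5.44 and 5.60 in imbibed seeds. All dry seed arrays lay above all imbibed seed arrays, and these above all silique arrays. The same held in rdo5-1, with medians of 5.06, 5.0 and 4.92 in siliques, 5.73, 6.03 and 5.95 in dry seeds and 5.49, 5.42 and 5.33 in imbibed seeds. The median of all 30014 rows went the other way, from 4.31 to 4.35 on silique arrays to between 4.03 and 4.12 on seed arrays.

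**Figure D1:**
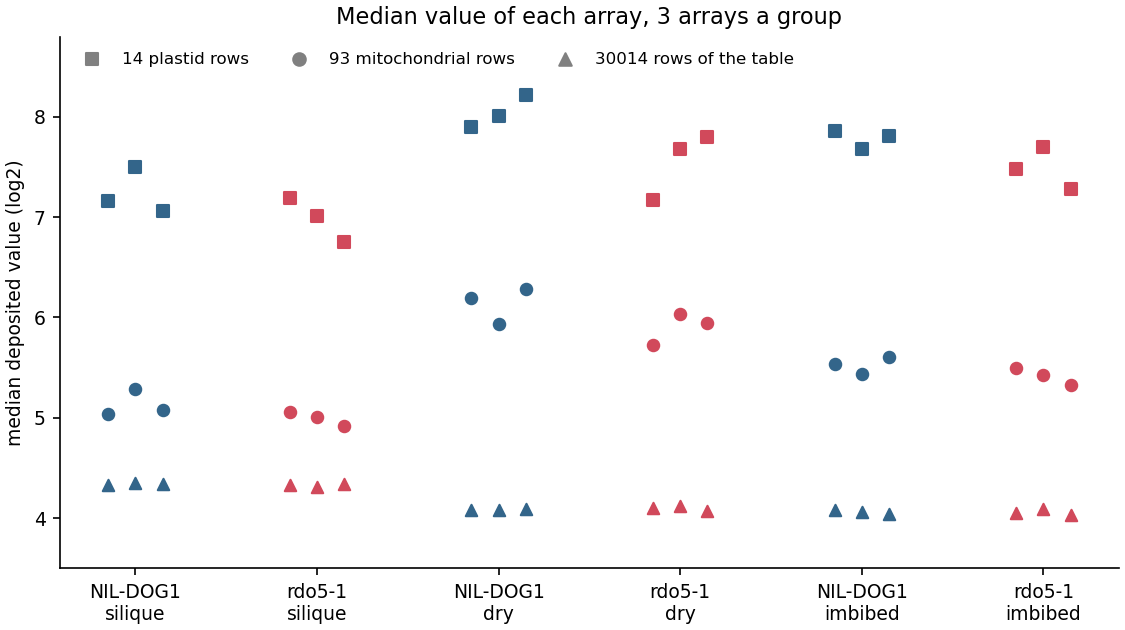
Median deposited value (log2) of each array for the 14 plastid rows (squares), the 93 mitochondrial rows (circles) and all 30014 rows (triangles), with 3 arrays per group, NIL-DOG1 in blue and rdo5-1 in red. The mitochondrial medians are highest in dry seeds in both genotypes, and rdo5-1 dry array 1 is the lowest of the 6 dry seed arrays at 5.73.

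Single rows spread widely, with array values from 2.07 to 10.37, where those of all rows ran from 1.89 to 14.67. Group means ran from 2.28 to 9.22 in NIL-DOG1 siliques and from 2.95 to 10.36 in NIL-DOG1 dry seeds. By mean over all arrays, the brightest rows were ATMG00990 at 8.91, ATMG00516 at 8.89, ATMG01190 at 8.71, ATMG00090 at 8.42 and ATMG00830 at 8.16. The dimmest were ATMG01170 at 2.56, ATMG00860 at 2.99, ATMG00920 at 3.04, ATMG01300 at 3.24 and ATMG00300 at 3.39. In siliques 65 of the 93 rows lay above the table's median in either genotype, and 78 or 79 did in seeds. A level on this array also depends on the probes of a row, so these values order no transcripts by abundance. The median replicate SD of the mitochondrial rows was 0.15 to 0.20 per group, against 0.10 to 0.13 for all rows.

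From siliques to dry seeds most of the mitochondrial rows rose. The silique arrays also carried the silique markers named above, so change of stage and change of tissue cannot be told apart at this step. In NIL-DOG1 63 of 93 passed the test as higher and 1 as lower, with a median log2 fold change of 0.80. In rdo5-1 60 were higher and 2 lower, with a median of 0.68. These counts stand against a large background, since 54% of all rows were called in NIL-DOG1 (27.4% higher and 26.6% lower) and 52.9% in rdo5-1 (27.2% higher and 25.7% lower). The median over all rows was 0.05 and 0.06. The chromosome 2 rows moved in the same direction. Of the 96 with no identical row, 58 were called higher and 1 lower in NIL-DOG1, and 54 and 1 in rdo5-1. Called mitochondrial rows with a change of at least 1 log2 unit numbered 38 in NIL-DOG1 and 33 in rdo5-1. Of all 30014 rows 6656 and 6599 were called with such a change. Calls are from limma over all 30014 rows at a Benjamini-Hochberg adjusted p under 0.05.

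The scale of this comparison depends on the normalization. Centring every array on its median moved the median of all rows from 0.05 to 0.30 in NIL-DOG1 and split all calls 72.4% to higher, against 50.8% as deposited. In rdo5-1 the share was 71.3% against 51.4%. Under the same centring the mitochondrial rows had a median of 1.05 in NIL-DOG1 with 81 higher and 1 lower, and of 0.91 in rdo5-1 with 82 and 1. Centring leaves the distance from all rows as it was, at 0.75 in NIL-DOG1 and 0.62 in rdo5-1, and renewed quantile normalization gave 0.86 and 0.85.

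ATMG01270 showed the largest rise in NIL-DOG1. Its values were 4.26, 3.57 and 4.35 in siliques, 7.48, 7.28 and 6.70 in dry seeds and 5.60, 5.75 and 5.17 in imbibed seeds. The groups did not overlap. The change from silique to dry seed was 3.09 ± 0.23 in NIL-DOG1 (adjusted p = 4.02e-09) and 2.43 ± 0.23 in rdo5-1, where all arrays of the groups also stood apart (SE, n = 3 a group, limma).

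ATMG00090 rose by a similar amount. Its values were 7.25, 7.92 and 6.63 in NIL-DOG1 siliques and 9.94, 9.97 and 9.86 in dry seeds. In rdo5-1 they were 6.27, 6.71 and 6.20 in siliques and 8.78, 9.32 and 9.40 in dry seeds. The silique arrays of NIL-DOG1 were spread widely, with an SD of 0.64, and still lay below every dry seed array. The fitted rises were 2.65 and 2.77 on the log2 scale.

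ATMG01190 was the brightest row of dry seeds. In NIL-DOG1 it read 7.87, 7.91 and 7.97 in siliques, 10.35, 10.37 and 10.36 in dry seeds and 8.23, 8.41 and 8.40 in imbibed seeds. It thus rose by 2.44 ± 0.12 and then fell by 2.01 ± 0.12, to a group mean of 8.35 against 7.92 in siliques. In rdo5-1 the rise was 2.46 and the fall 2.20. ATMG01320 followed the same course, with a rise of 2.60 and a fall of 1.77 in NIL-DOG1 and of 2.25 and 1.59 in rdo5-1. The other rows among the 5 largest rises were ATMG00080 in NIL-DOG1, at 2.37, and ATMG00285 in rdo5-1, at 2.25.

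ATMG00280 went against the rest. Its values were 7.87, 7.94 and 7.95 in NIL-DOG1 siliques, 6.64, 6.51 and 6.82 in dry seeds and 6.27, 6.41 and 6.51 in imbibed seeds. It was thus high in siliques and low in both kinds of seed. The fall from silique to dry seed was -1.26 ± 0.19 in NIL-DOG1 (adjusted p = 2.19e-05) and -1.23 ± 0.19 in rdo5-1 (adjusted p = 2.84e-05, limma). It was the only row called lower in NIL-DOG1 at that step. ATMG00600 was also called lower in rdo5-1, at -0.38 ± 0.14 (adjusted p = 0.0287), a call that 7 of 26 alternatives lost, namely renewed quantile normalization, both centrings and leaving out rdo5-1 dry array 1 or 2 or rdo5-1 silique array 1 or 3.

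Imbibition lowered many of these rows. In NIL-DOG1 39 of 93 were lower in imbibed than in dry seeds and 0 higher by limma, with 43 and 0 at an unadjusted p under 0.05 and a median of -0.32. In rdo5-1 32 were lower and 1 higher, with a median of -0.24. Among all rows 24.9% were called in NIL-DOG1 (14.2% higher and 10.6% lower) and 28.3% in rdo5-1 (16.4% higher and 11.9% lower). At an unadjusted p under 0.05 by limma, 4601 of the 30014 rows were lower and 5439 higher in NIL-DOG1. Calls among all rows held more rises than falls, where those among the mitochondrial rows were nearly all falls. Called or not, 53.2% of all rows in NIL-DOG1 and 57.1% in rdo5-1 lay below 0, against 82.8% and 87.1% of the mitochondrial rows. The median over all rows was -0.02 and -0.04. The chromosome 2 rows shared the direction of the mitochondrial rows. Of the 96 with no identical row, 34 were called lower and 0 higher in NIL-DOG1, and 31 and 1 in rdo5-1. Both stage steps use the dry seed arrays, so a row that reads high on them moves in both.

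ATMG00516 fell furthest. In NIL-DOG1 it read 9.32, 9.44 and 8.90 in siliques, 10.09, 10.13 and 9.99 in dry seeds and 7.59, 7.64 and 7.63 in imbibed seeds. In rdo5-1 the dry seed values were 9.70, 9.99 and 9.92 and the imbibed seed values 7.66, 7.44 and 7.52. Imbibed seeds were thus the lowest stage for this row, below siliques. The falls were -2.45 ± 0.13 in NIL-DOG1 (adjusted p = 1.87e-09) and -2.33 ± 0.13 in rdo5-1 (adjusted p = 2.31e-09, limma). ATMG01120 fell by 1.73 in NIL-DOG1 and 1.63 in rdo5-1, ATMG01270 by 1.65 in NIL-DOG1 and ATMG00730 by 1.55 in rdo5-1.

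ATMG00350 gave the 1 rise, in rdo5-1, from 7.27, 8.04 and 7.74 in dry seeds to 8.36, 8.45 and 8.04 in imbibed seeds. The lowest imbibed array lay level with the highest dry one to 2 decimals. The change was 0.60 ± 0.17 (adjusted p = 0.0123, limma), and it was lost with the compared arrays alone and without rdo5-1 dry array 1 or imbibed array 2. In NIL-DOG1 the same row changed by -0.15 (adjusted p = 0.621). AT2G07762 has the same 18 values as ATMG00350.

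Ordered by group mean, dry seeds were the highest stage for 72 of 93 rows in NIL-DOG1 and 79 in rdo5-1, and siliques the lowest for 80 and 78. Imbibed seeds lay between siliques and dry seeds for 66 and 70. The stage changes of the 93 rows were alike in the genotypes, which share no arrays. Pearson's r across rows was 0.95 for dry seeds against siliques and 0.90 for imbibed against dry seeds, against 0.98 and 0.85 over all rows. No row passed the test for a genotype difference in a stage step (0 called by limma in either, where 0.05% and 0.02% of all rows were called). At an unadjusted p under 0.05 there were 7 and 8 such rows of 93, against 2202 and 1948 of all 30014 rows.

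**Figure D2:**
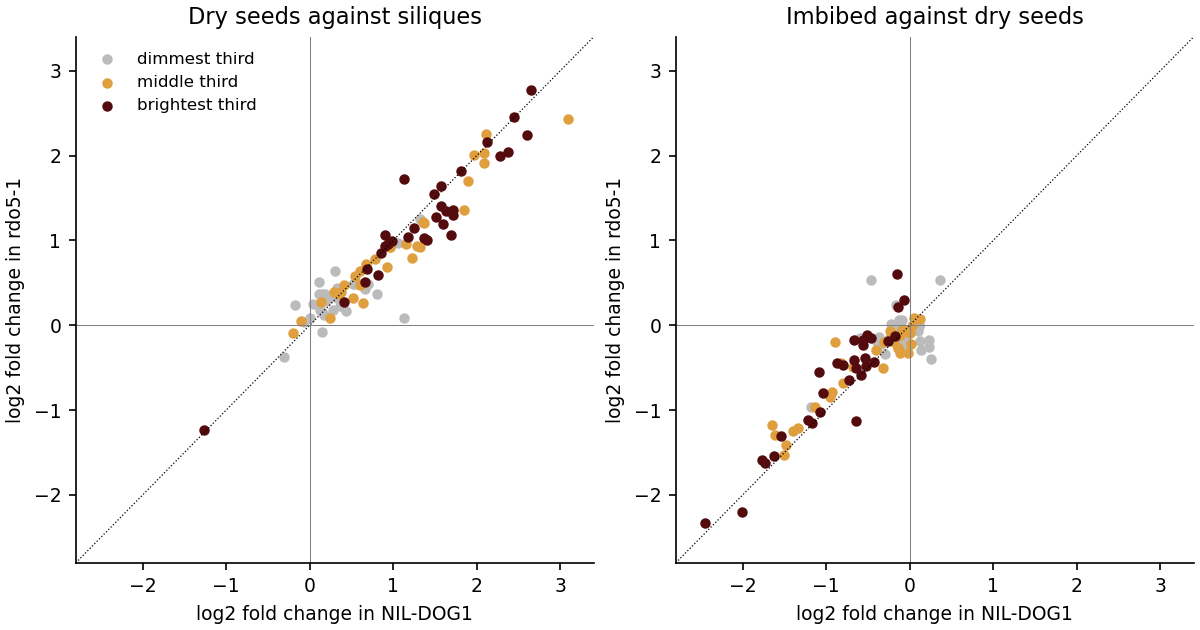
Log2 fold change of each mitochondrial row in NIL-DOG1 (horizontal) and rdo5-1 (vertical), for dry seeds against siliques (left) and imbibed against dry seeds (right), with grey, orange and dark red for the 31 dimmest, 31 middle and 31 brightest rows and a dotted line of equality. Rows lie along the line, with a median of 0.80 and 0.68 on the left and -0.32 and -0.24 on the right, and ATMG00280 stands alone at -1.26 and -1.23 on the left.

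Size of change followed brightness. Among the 31 brightest rows the median rise to dry seeds was 1.49 in NIL-DOG1 and 1.20 in rdo5-1, and 29 and 28 of them were called higher. The 31 dimmest rows, with means under 4.73, had medians of 0.28 and 0.33 and 13 and 10 rises. The 31 middle rows lay between, with medians of 0.92 and 0.79 and 21 and 22 rises. Among all rows 27.4% were called higher in NIL-DOG1 and 27.2% in rdo5-1, against 41.9% and 32.3% of the 31 dimmest rows. In rdo5-1 the dimmest rows were thus close to the share of all rows. Rows were ranked by their mean over all arrays, dry seed arrays included, so rank and rise were not independent. The part of background signal in the dim rows was not tested.

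Nuclear genes for mitochondrial proteins took courses that differed by list and by stage step. The lists used here hold the 26 genes that the gene table names out of 54 written down, and they were composed with earlier results of these data known. Of 16 nuclear subunits of the respiratory chain and ATP synthase, 8 were lower and 3 higher in dry seeds than in siliques in NIL-DOG1, with a median of -0.17. In rdo5-1 9 were lower and 3 higher. That direction turned under centring on the array median, which gave 7 higher and 5 lower in NIL-DOG1 and 6 and 5 in rdo5-1. The 4 ATP synthase subunits ATP3, ATP5, ATPQ and MGP1 were all called lower in both genotypes, with medians of -0.54 and -0.57, and under centring 3 of the 4 calls remained in each. ATPQ, a subunit of the stalk, fell by 0.78 in NIL-DOG1. CYTC-2, which encodes the electron carrier cytochrome c, rose by 1.15, while CYTC-1 fell by 0.24.

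On imbibition the calls among these nuclear subunits were all rises. Of the 16, 9 were higher in NIL-DOG1 and 8 in rdo5-1, against 14.2% and 16.4% of all rows, and 0 were lower in either, at limma's adjusted p under 0.05 or unadjusted. The mitochondrial rows had 39 and 32 of 93 lower at this step. The medians were 0.26 and 0.26. Under the scalings tried the rises numbered 7 to 9 in NIL-DOG1 and 7 to 11 in rdo5-1. ATPQ rose by 0.64 and 0.65. GAMMA CAL1 and GAMMA CA3, carbonic anhydrase-like subunits of plant complex I, rose by 0.50 and 0.44 in NIL-DOG1.

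Among nuclear factors for mitochondrial RNA, every call at either stage step was a rise. Of 10 such genes 7 were higher in dry seeds than in siliques in each genotype, against 27.4% of all rows in NIL-DOG1 and 27.2% in rdo5-1, with medians of 0.77 and 0.69, and 0 were lower, by limma or at an unadjusted p under 0.05. PMH1 and PMH2, RNA helicases that help to splice mitochondrial introns, rose by 2.13 and 1.78 in NIL-DOG1. RUG3, needed for splicing of a complex I transcript, rose by 1.95, and MGP3, a mitochondrial RNA polymerase, by 1.34. On imbibition 6 rose in NIL-DOG1 and 7 in rdo5-1, against 14.2% and 16.4% of all rows, among them WTF9 by 1.26 and PMH1 by 1.09 in NIL-DOG1. None of the 26 nuclear genes was called between the genotypes at any stage by limma, where 2 had an unadjusted p under 0.05, both in dry seeds.

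**Figure D3:**
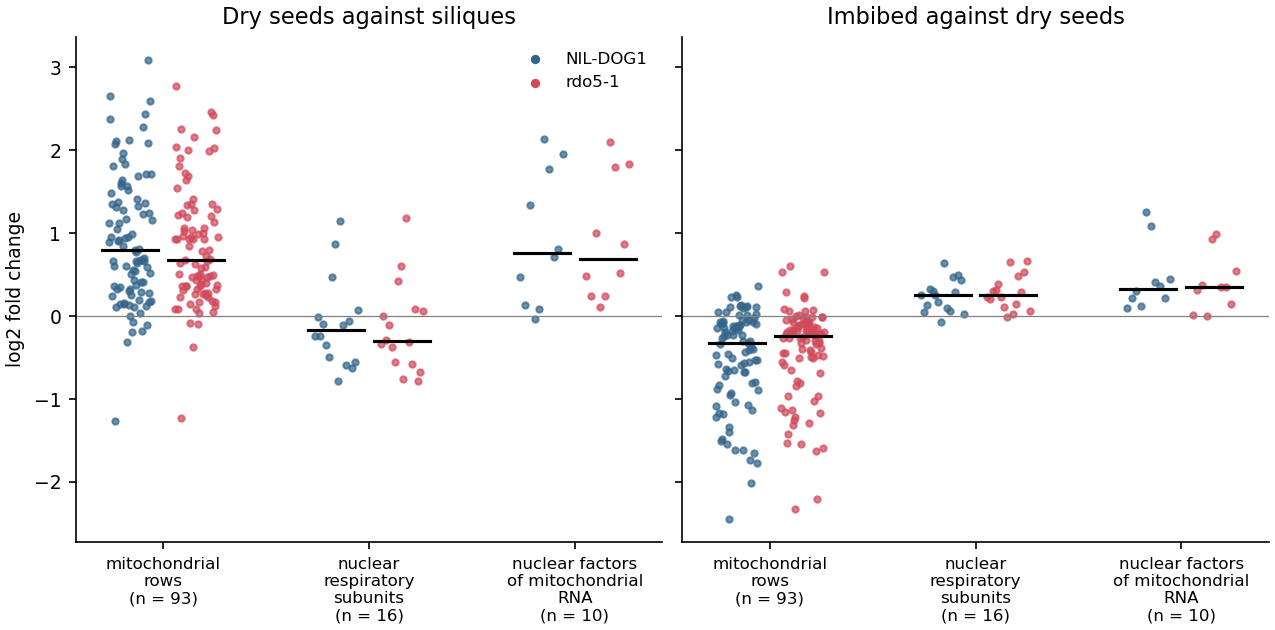
Log2 fold changes of the 93 mitochondrial rows, 16 nuclear respiratory subunits and 10 nuclear factors of mitochondrial RNA, for dry seeds against siliques (left) and imbibed against dry seeds (right), with each point a row, bars at the medians, NIL-DOG1 in blue and rdo5-1 in red. On the left the median is 0.80 for mitochondrial rows and -0.17 for nuclear subunits in NIL-DOG1, and on the right -0.32 and 0.26.

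Between the genotypes 1 row stood out at every stage. ATMG00570 read 6.72, 6.68 and 6.28 in NIL-DOG1 siliques and 5.75, 5.82 and 5.60 in rdo5-1 siliques. In dry seeds it read 7.33, 7.58 and 7.59 against 6.55, 6.63 and 6.85. Imbibed seeds gave 7.42, 7.17 and 7.37 against 6.64, 6.56 and 6.45. At each stage every rdo5-1 array lay below every NIL-DOG1 array. The log2 fold changes of rdo5-1 against NIL-DOG1 were -0.84 ± 0.12 for siliques (adjusted p = 0.00522), -0.82 ± 0.12 for dry seeds (adjusted p = 0.00852) and -0.77 ± 0.12 for imbibed seeds (adjusted p = 0.00591, limma). The mean over the 3 stages was -0.81 ± 0.07 (adjusted p = 1.21e-05), or 1.75-fold lower.

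These calls are few among the mitochondrial rows, and few among all rows. ATMG00570 was the 1 call of 93 in siliques and in imbibed seeds, and with ATMG00490 the 2 calls in dry seeds, all lower. At an unadjusted p under 0.05 there were 12 lower and 1 higher in siliques, 28 and 1 in dry seeds and 15 and 0 in imbibed seeds. At that level 1208 of the 30014 rows were lower and 1459 higher in siliques. The same counts were 1246 and 1258 in dry seeds and 1048 and 1447 in imbibed seeds. Of all rows 0.2% were called at the silique stage, 0.137% in dry seeds and 0.633% in imbibed seeds. The silique call of ATMG00570 was lost with only the silique arrays in the fit (adjusted p = 0.263). Its dry seed call was lost in 5 of 26 alternatives, which were the dry seed arrays alone and leaving out NIL-DOG1 dry array 2 or 3 or rdo5-1 dry array 1 or 2 (adjusted p up to 0.218). Its imbibed seed call held under all 26. A required change of 1 log2 unit was not among the 26 and left 0 mitochondrial calls at each of these stages.

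AT2G07716, the chromosome 2 row picked as partner of ATMG00570 for its likeness on these same arrays, had nearly the same values. It read 6.67, 6.60 and 6.22 in NIL-DOG1 siliques and 5.69, 5.79 and 5.48 in rdo5-1 siliques, and 7.45, 7.54 and 7.61 against 6.31, 6.61 and 6.85 in dry seeds. In imbibed seeds it read 7.42, 7.31 and 7.39 against 6.66, 6.49 and 6.44. Its genotype effects were -0.84, -0.94 and -0.84, each called (adjusted p = 0.0121, 0.00692 and 0.00675, limma). Whether AT2G07716 holds a copy of the sequence of ATMG00570 was not checked by sequence. Which of these rows gave the difference was not tested, and these values cannot tell a mitochondrial from a nuclear transcript.

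ATMG00490 was lower in dry seeds of rdo5-1, where it read 6.16, 6.44 and 6.49 against 7.06, 7.17 and 7.09 in NIL-DOG1. The groups did not overlap. The change was -0.74 ± 0.14 (adjusted p = 0.0458, limma), near the threshold, and 19 of 26 alternatives lost it, 16 of them fits with 1 array left out. In siliques the values were 5.51, 4.84 and 5.14 against 5.36, 5.55 and 5.61 and overlapped, and the change was -0.34 (adjusted p = 0.475). In imbibed seeds it was -0.26 (adjusted p = 0.666).

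**Figure D4:**
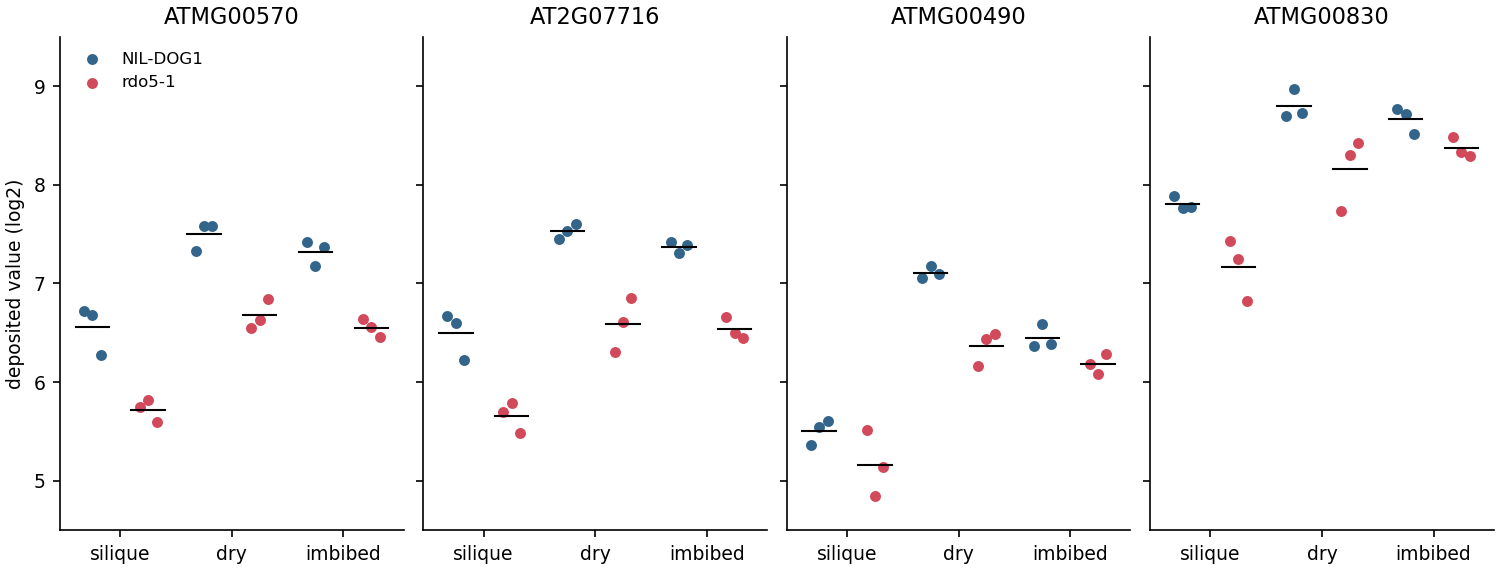
Deposited values (log2) of ATMG00570, its chromosome 2 partner AT2G07716, ATMG00490 and ATMG00830 on each array by stage, with points for arrays, bars for group means, NIL-DOG1 in blue and rdo5-1 in red. ATMG00570 and AT2G07716 have all rdo5-1 arrays below all NIL-DOG1 arrays at the 3 stages, with mean differences of -0.81 and -0.87.

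Averaged over the 3 stages, 10 of the 93 mitochondrial rows were called lower in rdo5-1 and 0 higher by limma, with 30 and 1 at an unadjusted p under 0.05. Of all rows 0.95% were called in this mean (0.61% higher and 0.34% lower). At the unadjusted level 1484 of the 30014 rows were lower and 1868 higher. After ATMG00570 the next mitochondrial rows by adjusted p were ATMG00490 at -0.45 ± 0.08 (adjusted p = 0.0118), ATMG00830 at -0.53 ± 0.10 (adjusted p = 0.0146) and ATMG00580 at -0.46 ± 0.09 (adjusted p = 0.0171, limma). These 4 kept their call with each array left out and under the scalings tried. The other 6, at changes of -0.28 to -0.65, were ATMG01280, ATMG01190, ATMG01320, ATMG00560, ATMG00090 and ATMG00610, with adjusted p from 0.0311 to 0.0464. Each of these was lost in 12 to 16 alternatives, with the adjusted p reaching 0.102. The 10 calls became 4 without NIL-DOG1 imbibed array 2, rdo5-1 dry array 1 or rdo5-1 imbibed array 2 or 3. They became 5 or 6 without any 1 NIL-DOG1 dry array, NIL-DOG1 imbibed array 1 or 3, NIL-DOG1 silique array 2 or rdo5-1 silique array 1 or 3.

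ATMG00830 read 7.88, 7.77 and 7.77 in NIL-DOG1 siliques and 7.43, 7.25 and 6.82 in rdo5-1 siliques. In dry seeds it read 8.70, 8.97 and 8.73 against 7.73, 8.30 and 8.43, and in imbibed seeds 8.76, 8.71 and 8.51 against 8.49, 8.34 and 8.29. The groups stood apart at every stage, although no single stage was called (adjusted p = 0.202, 0.194 and 0.717). ATMG00580 stood apart in siliques, where its change was -0.50, and in dry seeds, at -0.63, and overlapped in imbibed seeds. ATMG00990, the brightest row, was lower by 0.62 in the mean and missed the threshold (adjusted p = 0.0619, limma).

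Of the 10 rows called in the mean, 5 had codes in the run from ATMG00480 to ATMG00620, which holds 16 of the 93 rows, and the other 5 were among the 77 rows elsewhere. This run was picked after the values were seen, and its count is a description only. Its chromosome 2 partners stood in order, but so did those of rows elsewhere. ATMG00270, ATMG00280, ATMG00285 and ATMG00290, for example, had AT2G07731, AT2G07732, AT2G07733 and AT2G07734 as partners. Among the 114 chromosome 2 rows 11 were called in the mean, all lower, and AT2G07708, AT2G07709, AT2G07716, AT2G07717 and AT2G07719 of these lie in the partner run. In dry seeds AT2G07709 at -0.44 (adjusted p = 0.0365) and AT2G07717 at -0.62 (adjusted p = 0.0421) were called beside AT2G07716.

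Beyond the calls, the mitochondrial rows leaned to lower values in rdo5-1. The effect was below 0 for 68 of 93 rows at the silique stage, 70 in dry seeds and 71 in imbibed seeds, against 49.4%, 49.5% and 51% of all rows. The medians were -0.07, -0.19 and -0.12. All rdo5-1 arrays lay below all NIL-DOG1 arrays for 15 rows at the silique stage, 29 in dry seeds and 17 in imbibed seeds, and above for 4, 2 and 0. For all rows the shares apart and lower were 6.26%, 7.05% and 7.33%, and apart and higher 6.19%, 7.63% and 8.13%. Effects below 0 at all 3 stages were found for 45 of 93 rows (48.4%), against 15.2% of all rows and 36.8% of the chromosome 2 rows. The rows of an array move together, so these counts are descriptions of 18 arrays and not of 93 separate measurements.

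One array weighed on the lean in dry seeds. The median of the mitochondrial rows on rdo5-1 dry array 1 was 5.73, against 6.03 and 5.95 on the other arrays of its group, and its median of the plastid rows was 7.17 against 7.68 and 7.80. Without it the median genotype effect in dry seeds was -0.09 in place of -0.19. Leaving out rdo5-1 imbibed array 3 moved the median in imbibed seeds from -0.12 to -0.06, and leaving out NIL-DOG1 imbibed array 3 moved it to -0.08. In siliques the median was -0.15 without NIL-DOG1 array 3, -0.13 without rdo5-1 array 2 and -0.11 without NIL-DOG1 array 1, against -0.07 with all arrays. The median stayed below 0 with any 1 array left out.

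The lean was largest in the brightest rows and smallest in the dimmest in dry and imbibed seeds. The 31 brightest had medians of -0.23, -0.37 and -0.17 in siliques, dry and imbibed seeds, and 28, 30 and 27 of them were below 0. For the 31 middle rows the medians were -0.03, -0.19 and -0.12, with 22, 24 and 26 below 0. For the 31 dimmest the medians were -0.05, -0.01 and -0.04, with 18, 16 and 18 below 0. Of the 10 rows called in the mean, 9 were among the 31 brightest and 1 among the 31 middle rows. Genotype effects of the 93 rows at different stages, which share no arrays, had an r of 0.50 between siliques and dry seeds, 0.46 between siliques and imbibed seeds and 0.35 between both kinds of seed. The same values over all rows were 0.09, 0.06 and 0.15. These r run across rows, which are not independent replicates.

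**Figure D5:**
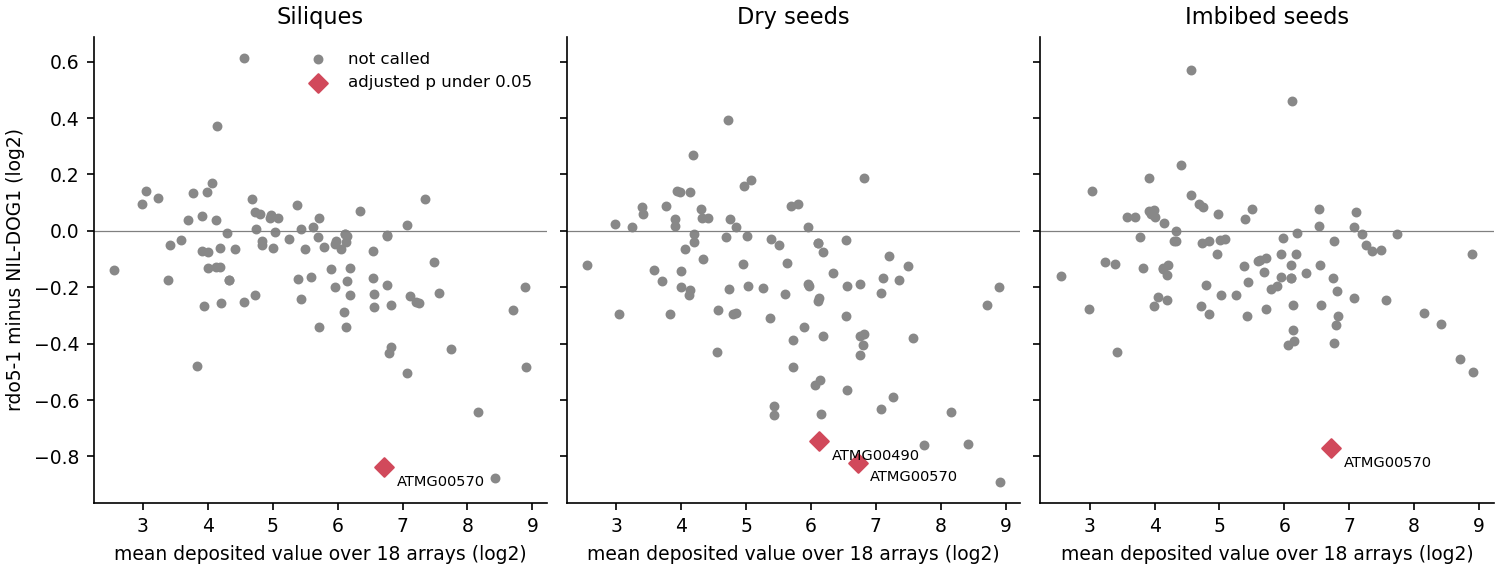
Genotype effect (rdo5-1 minus NIL-DOG1, log2) of each mitochondrial row against its mean deposited value over 18 arrays (log2), by stage, with rows called at an adjusted p under 0.05 as red diamonds. ATMG00570 is called at the 3 stages and ATMG00490 in dry seeds, and the brightest rows lie mostly below 0, with medians of -0.23, -0.37 and -0.17.

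Plastid rows, which measure the other organelle genome with the same priming, also leaned to lower values in rdo5-1. The table holds 14 of them, of which 12 are distinct and ATCG00610 is identical to ATMG00930. Their medians were -0.37, -0.41 and -0.19, with 14, 14 and 12 of 14 below 0. By limma 0 were called at any single stage, where 4 in siliques and 5 in dry seeds were lower at an unadjusted p under 0.05. In imbibed seeds 1 was lower and 1 higher at that level, the latter ATCG00020 at 0.62 (adjusted p = 0.531), with all rdo5-1 arrays above all NIL-DOG1 arrays. In the mean 1 row, ATCG00040, was called lower (adjusted p = 0.00875, limma). The part that the amount of organelle RNA per array has in the genotype effects of mitochondrial rows was not tested.

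The rows of the whole table most like the leading members, by Pearson's r of deviations from stage means over 18 arrays, included a chromosome 2 row for each. For ATMG00570 they were AT2G07716 at 0.99, ELF6 at 0.94 and RDO5 at 0.94. For ATMG00490 they were SLK2 at 0.92, ATMG01280 at 0.92 and AT2G07695 at 0.91, and for ATMG00830 AT2G07783 at 0.99, AT2G07835 at 0.94 and AT2G07708 at 0.91. These deviations hold the genotype difference itself, so a row that differs between the lines at all stages ranks high.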

How the data were processed

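The authors deposited 1 log2 value per locus and array, made with RMA per the submitters' processing notes. Version and probe-set definition are not given in the sources used, nor is it stated if all arrays were normalized in 1 run. Members are all rows whose code starts with ATMG. Members and lists were chosen with earlier results of these data known. A TAIR10.1 gene table gave names, and none for ATMG or ATCG codes. No sequence of these loci was used here. In limma 3.58.1 (R 4.3.3; lmFit, eBayes), a model with 1 mean per group was fitted to the 18 arrays and 30014 rows without a filter (12 residual degrees of freedom), with Benjamini-Hochberg adjustment over all rows of each of 10 comparisons and calls at an adjusted p under 0.05. SE is that of the log2 fold change. The number of arrays limits the precision. Named rows are the called rows and 5 largest differences of genotype comparisons, the 5 largest called, non-overlapping rises and falls of stage comparisons, and the 5 brightest and dimmest rows. On simulated data for the genotype effect in dry seeds (30014 rows) 86% of 50 rows changed by 0.8 log2 units were called, and 60% of 50 changed by 0.5. Noise was drawn independently and changed rows were picked from the whole table, with 13 false calls among 180. In dry seeds the median replicate SD was 0.17 (NIL-DOG1) and 0.20 (rdo5-1) for mitochondrial rows, against 0.11 for all rows. The simulated shares therefore may not hold for mitochondrial rows. Alternatives were other scalings, filters, fits and left-out arrays. Leaving out members identical to another row was added after seeing the data.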

Additional observations from a re-analysis of the deposited data

How the results depend on the processing

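No count of the mitochondrial rows and no named mitochondrial row reversed its direction under an alternative. Of the nuclear lists, the 16 respiratory subunits turned from more falls (8 against 3 rises in NIL-DOG1, 9 against 3 in rdo5-1) to more rises (7 against 5, and 6 against 5) from silique to dry seed under centring on the array median. Of 1289 values of named rows under alternatives, 1161 kept their side of the threshold, 121 lost the call and 7 gained it. Requiring a change of 1 log2 unit or more was not among the alternatives of named rows. It left 0 called members in siliques, dry seeds, imbibed seeds and the mean genotype effect. Of all 30014 rows 23, 12, 34 and 14 were left there. In dry seeds against siliques it left 38 members (NIL-DOG1) and 33 (rdo5-1), against 6656 and 6599 of all rows. In imbibed against dry seeds it left 19 and 16, against 957 and 1145. With only the arrays compared, siliques and dry seeds each had 0 called members. Renewed quantile normalization gave 1 in dry seeds. The replicate block gave 1 in dry seeds and 6 in the mean. Same-numbered arrays of the genotypes deviated together at r of -0.03 to 0.17 within a stage. Differently numbered arrays were not set beside them, so whether the numbers pair the samples was not tested. Leaving out each array in turn gave 1 to 2 called members in siliques, 0 to 2 in dry seeds, 1 to 1 in imbibed seeds, 4 to 9 in the mean and 0 to 0 for both stage differences of the genotype effect. For dry seeds against siliques the range was 58 to 65 in NIL-DOG1 and 56 to 64 in rdo5-1, and for imbibed against dry seeds 34 to 40 and 26 to 35. The cause of these moves was not tested, beyond there being fewer arrays in the fit. The mean effect uses all 18 arrays, so fitting the compared arrays alone was not run for it. No detection call was used here, so how far the dimmest rows lay above background was not tested.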

Other observations

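Some rows departed from the common order of stages by group mean. Imbibed seeds were the highest stage by group mean for 15 of 93 mitochondrial rows in NIL-DOG1 and 10 in rdo5-1, and ATMG00200, ATMG01050 and ATMG01340 were among them in both. Siliques were highest for 6 and 4, with ATMG00280, ATMG00600 and ATMG00840 in both. Of these 3, ATMG00280 was called lower from silique to dry seed in both genotypes and ATMG00600 in rdo5-1, and ATMG00840 in neither (-0.20 and -0.09).

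ATMG00050 gave the highest positive genotype effects, with values that overlapped between the lines. It read 3.06, 4.22 and 4.24 in NIL-DOG1 siliques and 4.44, 4.08 and 4.84 in rdo5-1 siliques, an effect of 0.61 ± 0.39 (SE; adjusted p = 0.713, limma). In imbibed seeds the effect was 0.57 (adjusted p = 0.792) and in dry seeds -0.43 (adjusted p = 0.837). ATMG01410 was higher in value in rdo5-1 imbibed seeds by 0.46 (adjusted p = 0.749), again with overlap.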
